A study of Mus musculus with 8 samples.

Results

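The 10 genes described here are targets of the transcription factor p53 that act in feedback on p53 and in growth control: Mdm2, Mdm4, Ccng1, Ppm1d, Phlda3, Zmat3, Plk2, Plk3, Btg2 and Psrc1. They were taken by name from a list of p53 targets, not by a threshold on their values, and all 10 were found among the 29915 genes with a tested probe set. The choice was made with earlier results of these data known. Each was measured by 1 probe set. RNA was hybridised to 8 arrays. It came from long-term haematopoietic stem cells (LT-HSC) of mouse bone marrow, which were sorted for cKit, Sca and CD150 and against lineage markers, Flk2 and CD48.

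Each of 4 groups had 2 arrays. These were wild-type (WT) mice given total body irradiation of 2 Gy, WT mice left non-irradiated, CD169DTR/+ mice (CD169-DTR below) given 2 Gy, and CD169-DTR mice left non-irradiated. CD169-DTR mice are heterozygous for a diphtheria toxin receptor driven by Siglec1, the gene of CD169. All mice, WT included, received diphtheria toxin, which was given to deplete CD169+ macrophages in the CD169-DTR mice. At 72 h after the toxin the mice were irradiated or sham-treated, and the bone marrow was sorted at day 5. The 2 arrays of a group came from distinct experiments, and the number and age of the mice behind each array are not given in the sources used here.

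p53 is stabilised when DNA is damaged and switches on genes that stop the cell cycle, repair DNA or kill the cell. Several of its targets act back on p53 itself: Mdm2 marks p53 for degradation, Mdm4 binds p53 and blocks its activity as a transcription factor, and Ppm1d (Wip1) removes phosphate groups from p53 and from the kinases that activate it. In haematopoietic stem cells p53 is known for restraining division and for the response to radiation.

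The promoters of these genes are shown first, because p53 binds its targets at paired copies of a short consensus, the p53 half-site of 10 bases, and the genes differ in whether their promoter holds it. RefSeq windows of mouse assembly GRCm38.p6, from 250 bases before to 50 bases after the start of the gene, were found for 9 of the 10 genes (11 windows). Zmat3 had none in the table used. The half-site reads the same on both strands, and matches that overlap each other were allowed. It was present in the windows of 3 of the 9 genes, Mdm2, Ccng1 and Ppm1d, against 8.36% of all 32851 windows and 9.55% of all 27025 genes with a window. The 4 windows below belong to these 3 genes and to Phlda3, which had the largest irradiation difference of the 10 and no match. They are written 5′ to 3′ on the strand of the gene, with the match in capitals.
Ccng1 (chr11:40755237-40755536, minus strand): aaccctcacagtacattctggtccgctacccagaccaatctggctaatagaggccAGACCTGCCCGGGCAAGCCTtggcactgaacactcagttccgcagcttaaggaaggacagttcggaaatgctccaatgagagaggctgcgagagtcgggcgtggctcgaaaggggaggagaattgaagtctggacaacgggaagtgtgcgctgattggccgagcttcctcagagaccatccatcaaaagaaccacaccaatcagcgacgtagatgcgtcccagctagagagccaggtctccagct
Mdm2 (chr10:117710709-117711008, minus strand): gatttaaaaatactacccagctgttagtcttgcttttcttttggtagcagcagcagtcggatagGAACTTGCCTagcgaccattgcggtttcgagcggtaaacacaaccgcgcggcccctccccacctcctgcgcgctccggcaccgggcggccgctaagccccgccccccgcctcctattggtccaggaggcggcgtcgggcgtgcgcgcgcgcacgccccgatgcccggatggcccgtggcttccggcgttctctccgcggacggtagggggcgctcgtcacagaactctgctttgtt
Ppm1d (chr11:85311004-85311303, plus strand): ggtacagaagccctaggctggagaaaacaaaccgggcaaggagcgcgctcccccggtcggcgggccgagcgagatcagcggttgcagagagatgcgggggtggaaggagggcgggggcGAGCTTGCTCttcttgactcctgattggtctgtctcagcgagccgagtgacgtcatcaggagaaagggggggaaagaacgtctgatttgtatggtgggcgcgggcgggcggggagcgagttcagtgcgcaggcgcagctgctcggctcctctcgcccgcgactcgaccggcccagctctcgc
Phlda3 (chr1:135765835-135766134, plus strand): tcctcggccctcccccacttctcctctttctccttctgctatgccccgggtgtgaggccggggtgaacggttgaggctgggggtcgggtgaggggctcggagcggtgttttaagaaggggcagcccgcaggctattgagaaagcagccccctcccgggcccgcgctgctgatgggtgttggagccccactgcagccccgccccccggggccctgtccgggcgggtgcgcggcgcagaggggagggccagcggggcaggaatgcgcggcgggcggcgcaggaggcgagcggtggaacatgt

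In Ccng1 the capitals cover 20 bases, 2 adjoining half-sites of which the first departs from the consensus at 1 base, beginning 195 bases before the start of the gene (chr11:40755462-40755481). Such a pair with at most 1 mismatch and no spacer was found in 29 of the 32851 windows (0.0883%), and Ccng1 was the only one of the 9 genes to have it. In Mdm2 and Ppm1d the capitals mark single half-sites, beginning 186 and 132 bases before the start. These matches describe letters in a window of 300 bases. Sites in introns or farther upstream were not searched.

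All levels below are RMA values on a log2 scale, so that a difference of 1 is a 2-fold difference. Levels of different genes are not set against each other, because probe sets differ in how brightly they hybridise. Over the 8 arrays the range of a gene ran up to 2.08 for Plk2 and 1.58 for Phlda3 and down to 0.73 for Ppm1d and 0.69 for Mdm2. Medians of the arrays lay between 4.76 and 4.93. The probe sets of Btg2, Plk3 and Zmat3 were dim: Btg2 lay between the 40.7 and 55.7 percentiles of the tested probe sets over the 8 arrays, Plk3 between 43.2 and 58.6, and Zmat3 between 53.1 and 60.9. The deposited values carry no measure of background, so how far these 3 stood above it is not known. In sorted cells measured in bulk, fewer cells that express a gene and less RNA per cell cannot be told apart.

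Kit, the receptor for stem cell factor, had 14.36 and 14.33 in WT 2 Gy LT-HSC, against 14.93 and 14.89 in WT non-irradiated LT-HSC, and 14.25 and 14.25 in CD169-DTR 2 Gy LT-HSC, against 14.77 and 14.66 in CD169-DTR non-irradiated LT-HSC. The stem cell transcription factor Hlf had 12.70 and 12.53 in WT 2 Gy LT-HSC, against 13.33 and 13.18 in WT non-irradiated LT-HSC, and 12.44 and 12.54 in CD169-DTR 2 Gy LT-HSC, against 12.94 and 12.95 in CD169-DTR non-irradiated LT-HSC. Both were thus lower on all 4 irradiated arrays than on the 4 others, without passing (adjusted p = 0.209 for Kit and 0.235 for Hlf over both strains in limma). Of the LT-HSC list, 5 genes had higher and 6 lower means for the average. At an unadjusted p under 0.05 in limma, 5 were lower (3.98% of all probe sets) and 1 higher (5.24%), and 0 passed. Ctnnal1 went the other way from Kit and Hlf, with all 4 irradiated arrays above the 4 others by 0.1. All 4 irradiated arrays lay above the others for 3.76% of all probe sets and below for 1.74%. Slamf1, the gene of the sort marker CD150, had a higher mean on the irradiated arrays (11.67 against 11.24), with overlap. Tek did too (10.04 against 9.65), also with overlap. Over the 12 measured genes of 14 on the LT-HSC list, the mean level was 9.74 and 9.50 in WT 2 Gy LT-HSC, against 9.77 and 9.74 in WT non-irradiated LT-HSC, and 9.54 and 9.39 in CD169-DTR 2 Gy LT-HSC, against 9.67 and 9.51 in CD169-DTR non-irradiated LT-HSC. Siglec1 itself lay between 3.86 and 4.12 on all 8 arrays, near the 25th percentile of the arrays (3.85 to 4.04). Cd48, whose protein the sort excludes, had 12.95 and 12.14 in WT 2 Gy LT-HSC, against 11.24 and 10.98 in WT non-irradiated LT-HSC, and 13.47 and 13.00 in CD169-DTR 2 Gy LT-HSC, against 11.05 and 12.54 in CD169-DTR non-irradiated LT-HSC. Flt3, the gene of Flk2, had 6.45 and 6.65 in WT 2 Gy LT-HSC, against 7.99 and 7.12 in WT non-irradiated LT-HSC, and 5.85 and 6.48 in CD169-DTR 2 Gy LT-HSC, against 7.37 and 8.22 in CD169-DTR non-irradiated LT-HSC. Both genes of excluded proteins thus gave levels above the array medians. Ly6a (Sca-1) was not analysed here. On the first principal component (21.7% of the variance) and the second (19.7%), WT 2 Gy replicate 1 and CD169-DTR 2 Gy replicate 2 lay farthest from the centre, at distances of 54.1 and 54.6, against 8.09 to 27.7 for the other 6 arrays.

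**Figure D1:**
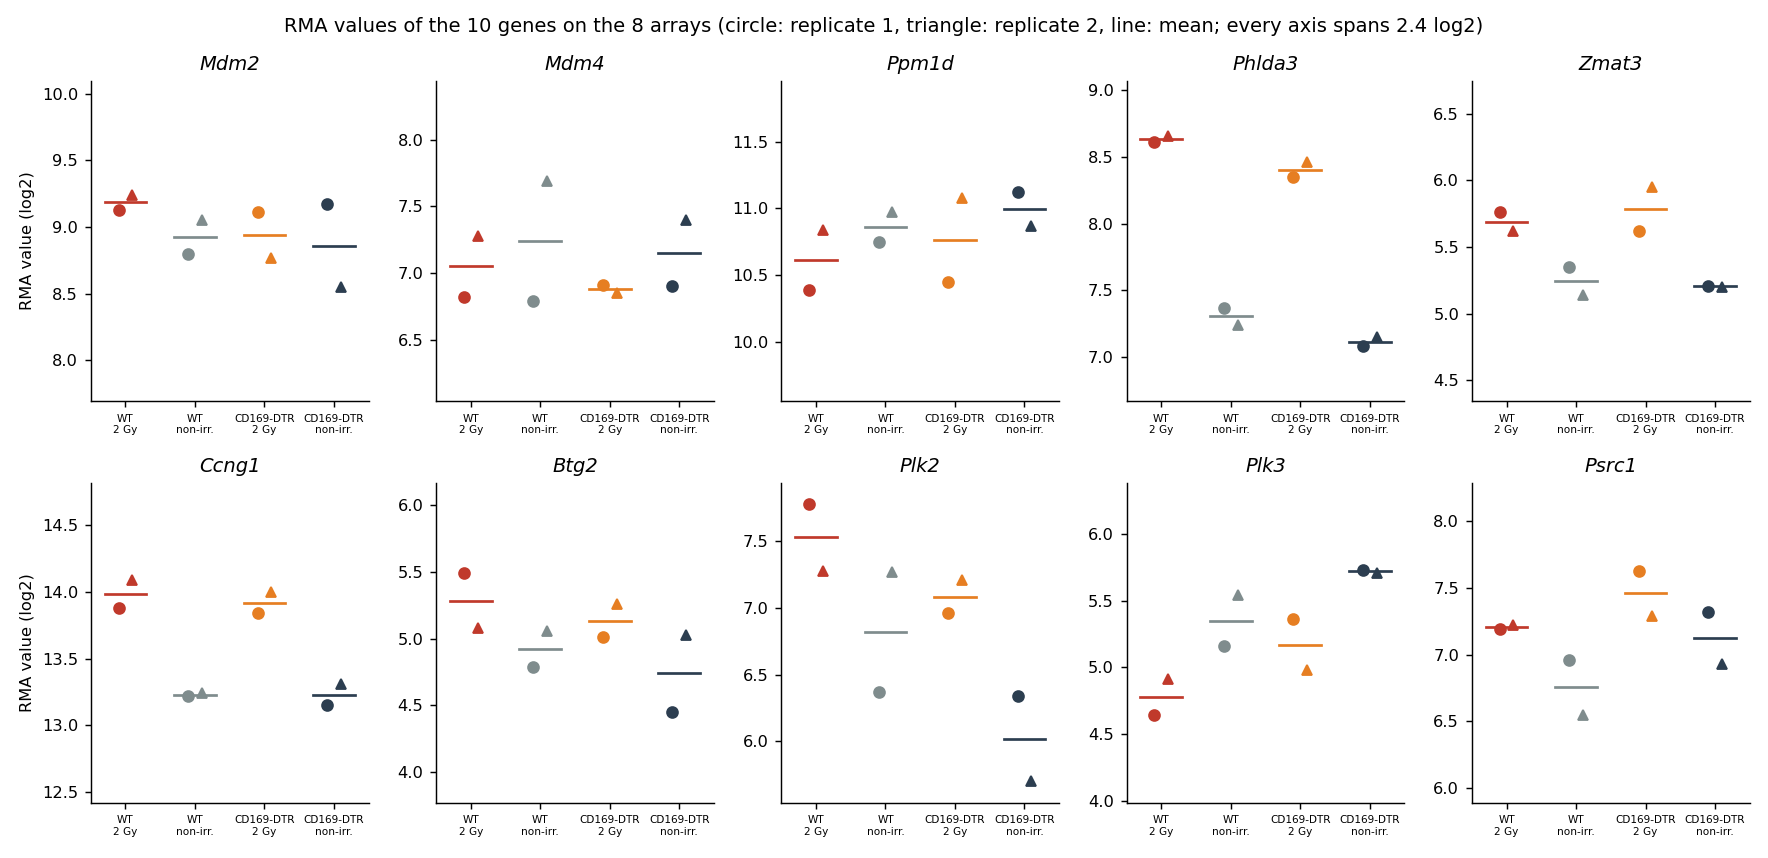
RMA values (log2, y axis) of the 10 genes in the 4 groups (x axis), with circles for replicate 1, triangles for replicate 2 and lines for the group mean; every y axis spans 2.4 log2. For Phlda3, Ccng1 and Zmat3 the 4 irradiated arrays sit above the 4 non-irradiated ones, for Plk3 the irradiated arrays sit below their own strain's non-irradiated ones, and for Mdm4 and Ppm1d the groups overlap.

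The comparison of 2 Gy with non-irradiated LT-HSC asks which of these genes differed at day 5. Phlda3 rose over both strains. Ccng1, Zmat3, Plk2 and Psrc1 had higher means and Plk3 a lower mean, without passing the test across all genes. The regulators of p53 itself, Mdm2, Mdm4 and Ppm1d, had intervals that included no difference.

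Phlda3, which binds membrane phosphoinositides and thereby keeps the survival kinase Akt from the membrane, had 8.61 and 8.66 in WT 2 Gy LT-HSC, against 7.37 and 7.24 in WT non-irradiated LT-HSC. In CD169-DTR it had 8.35 and 8.46 in 2 Gy LT-HSC, against 7.08 and 7.15 in non-irradiated LT-HSC. The lowest irradiated array stood 0.98 above the highest non-irradiated one. The rise over both strains was 1.31 ± 0.08 log2 (SE, n = 4 against 4), 2.48-fold with a 95% interval of 2.16 to 2.84, at an adjusted p of 0.0244 in limma. By unadjusted p it ranked 2 among the 30294 probe sets.

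Phlda3 was 1 of the 3 probe sets that passed for the average of both strains in either direction (0.0099% of those tested), and the only 1 of the 10 genes. Within a strain it did not pass: the difference was 1.33 ± 0.12 in WT (2.51-fold, adjusted p = 0.101) and 1.29 ± 0.12 in CD169-DTR (2.45-fold, adjusted p = 0.163). The call for the average rested on the spread estimated from all 8 arrays. Its size was between 1.24 and 1.34 log2 over 16 alternatives, while the adjusted p went from 0.0265 to 0.212. The call was lost with an intensity trend (0.06) and with the replicate block (0.0768). Leaving out a single array ended it in 7 of 8 cases. These were replicate 1 (0.128) and 2 (0.146) of non-irradiated WT, replicate 1 of WT 2 Gy (0.0798), replicate 1 (0.0634) and 2 (0.0682) of CD169-DTR 2 Gy, and replicate 1 (0.0958) and 2 (0.132) of non-irradiated CD169-DTR. Without WT 2 Gy replicate 2 it was kept (0.049), and without both far 2 Gy arrays, a setting chosen after seeing the data, it was lost (0.212).

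Ccng1 encodes cyclin G1, which brings the phosphatase PP2A to Mdm2. It had 13.88 and 14.09 in WT 2 Gy LT-HSC, against 13.22 and 13.24 in WT non-irradiated LT-HSC, and 13.84 and 14.00 in CD169-DTR 2 Gy LT-HSC, against 13.15 and 13.31 in CD169-DTR non-irradiated LT-HSC. All 4 irradiated arrays lay above all 4 others, with a gap of 0.53. The difference over both strains was 0.72 ± 0.09 (SE), 1.65-fold with an interval of 1.41 to 1.93 and an unadjusted p of 0.000166, the 21st smallest, which did not pass (adjusted p = 0.209). It was 0.76 ± 0.13 in WT (adjusted p = 0.37) and 0.69 ± 0.13 in CD169-DTR (adjusted p = 0.516).

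Zmat3 (Wig-1), a zinc finger protein that binds RNA, had 5.76 and 5.62 in WT 2 Gy LT-HSC, against 5.35 and 5.14 in WT non-irradiated LT-HSC. In CD169-DTR it had 5.62 and 5.95 in 2 Gy LT-HSC, against 5.21 and 5.20 in non-irradiated LT-HSC. The 4 irradiated arrays again lay above the 4 others, here by 0.27. The average difference was 0.51 ± 0.11 (SE), 1.43-fold with an interval of 1.19 to 1.71 (adjusted p = 0.329). Ccng1, Phlda3 and Zmat3 were the 3 of the 10 genes whose 4 irradiated arrays all lay above the 4 non-irradiated ones, against 3.76% of all probe sets. None of the 10 had all 4 below, against 1.74%.

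The polo-like kinases differed from each other in sign. Plk2, a kinase of the stress response and of centriole duplication, had 7.78 and 7.28 in WT 2 Gy LT-HSC, against 6.37 and 7.27 in WT non-irradiated LT-HSC, and 6.96 and 7.21 in CD169-DTR 2 Gy LT-HSC, against 6.34 and 5.70 in CD169-DTR non-irradiated LT-HSC. In WT the higher non-irradiated array was nearly level with the lower irradiated one, while in CD169-DTR both irradiated arrays were clear of the others. The average difference was 0.89 ± 0.25, 1.85-fold with an interval of 1.22 to 2.81 (adjusted p = 0.428). Plk3, a kinase activated by DNA damage and stress, had 4.64 and 4.91 in WT 2 Gy LT-HSC, against 5.16 and 5.54 in WT non-irradiated LT-HSC, and 5.36 and 4.98 in CD169-DTR 2 Gy LT-HSC, against 5.73 and 5.71 in CD169-DTR non-irradiated LT-HSC. It was lower within each strain, and its average difference was -0.56 ± 0.14 with an interval of -0.89 to -0.23 (adjusted p = 0.393). Among the 10 genes Plk3 was the only one with a lower mean and an unadjusted p under 0.05 (0.00537 in limma).

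Psrc1 (DDA3), a microtubule-binding protein of the mitotic spindle, had 7.19 and 7.22 in WT 2 Gy LT-HSC, against 6.96 and 6.55 in WT non-irradiated LT-HSC, and 7.63 and 7.29 in CD169-DTR 2 Gy LT-HSC, against 7.32 and 6.93 in CD169-DTR non-irradiated LT-HSC. The groups were apart in WT and overlapped in CD169-DTR. Its average difference was 0.39 ± 0.15 (adjusted p = 0.513). Btg2, an antiproliferative protein that recruits the deadenylase complex CCR4-NOT to messenger RNA, had 5.49 and 5.08 in WT 2 Gy LT-HSC, against 4.79 and 5.06 in WT non-irradiated LT-HSC, and 5.01 and 5.26 in CD169-DTR 2 Gy LT-HSC, against 4.45 and 5.03 in CD169-DTR non-irradiated LT-HSC. Replicate 2 of each non-irradiated group lay close to the lower irradiated array of its strain, and in CD169-DTR just above it. The average difference was 0.38 ± 0.17 (adjusted p = 0.559).

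Mdm2 had 9.13 and 9.24 in WT 2 Gy LT-HSC, against 8.80 and 9.05 in WT non-irradiated LT-HSC, and 9.11 and 8.77 in CD169-DTR 2 Gy LT-HSC, against 9.17 and 8.55 in CD169-DTR non-irradiated LT-HSC. The groups were apart in WT and overlapped in CD169-DTR. The average difference was 0.17 ± 0.16 (SE, adjusted p = 0.732), and its interval of 0.856- to 1.48-fold ended below the 2.48-fold of Phlda3. Mdm4 had 6.82 and 7.28 in WT 2 Gy LT-HSC, against 6.79 and 7.69 in WT non-irradiated LT-HSC, and 6.91 and 6.85 in CD169-DTR 2 Gy LT-HSC, against 6.90 and 7.40 in CD169-DTR non-irradiated LT-HSC. Its replicates differed by up to 0.9, and its average difference of -0.23 ± 0.23 (adjusted p = 0.741) had an interval of 0.58- to 1.25-fold. Ppm1d had 10.39 and 10.84 in WT 2 Gy LT-HSC, against 10.75 and 10.97 in WT non-irradiated LT-HSC, and 10.45 and 11.08 in CD169-DTR 2 Gy LT-HSC, against 11.12 and 10.87 in CD169-DTR non-irradiated LT-HSC. The groups overlapped in both strains, and the average difference was -0.24 ± 0.18 (adjusted p = 0.675) with an interval of 0.629- to 1.14-fold.

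**Figure D2:**
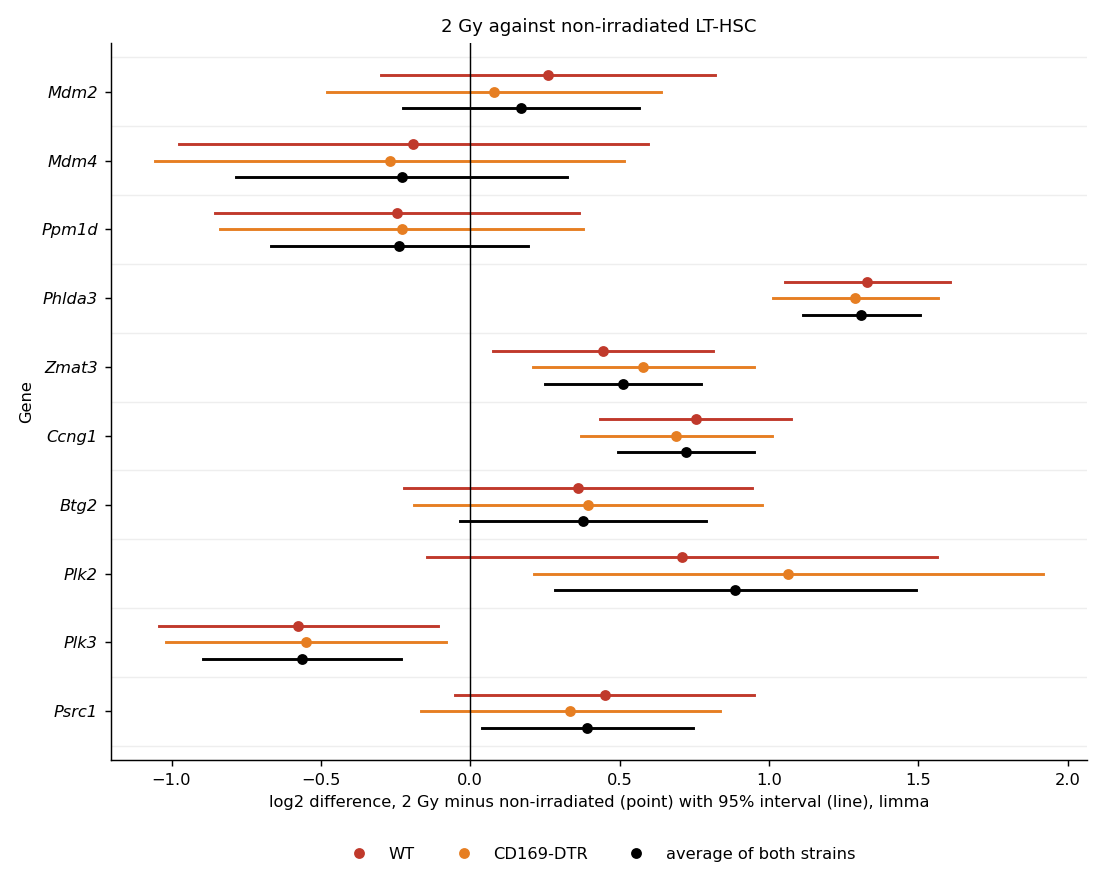
Log2 difference between 2 Gy and non-irradiated LT-HSC (x axis; points, with lines for the 95% interval from limma) for each of the 10 genes (y axis), shown by strain and as the average of both strains. The Phlda3 intervals lie wholly above 1, those of Ccng1 and Zmat3 above 0, those of Plk3 below 0, and those of Mdm2, Mdm4, Ppm1d and Btg2 include 0 in all 3 estimates.

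In counts, 0 of the 10 genes passed in WT (0.0099% of all probe sets) and 4 had an unadjusted p under 0.05, namely Phlda3, Ccng1 and Zmat3 higher (4.6% of all probe sets) and Plk3 lower (3.21%). In CD169-DTR 0 of 10 passed (0% of all probe sets) and 5 had an unadjusted p under 0.05, these same 3 and Plk2 higher (3.24%) and Plk3 lower (3.53%). For the average it was 5 higher, with Psrc1 (5.24%), and Plk3 lower (3.98%). Because the genes were chosen with earlier results of these data known, such counts are not an independent test. Means were higher for 7 of the 10 genes in all 3 estimates, against 63.7% of all probe sets for the average, 64.2% in WT alone and 56.6% in CD169-DTR alone. By an unadjusted p under 0.05 together with a fold of at least 1.5, the 10 genes gave 2 calls in WT (3.31% of all probe sets), 3 in CD169-DTR (3.58%) and 3 for the average (1.94%). The groups of a strain did not overlap for 7 genes on the higher side in WT (31.4% of all probe sets) and for 4 in CD169-DTR (17.8%). On the lower side Plk3 was the only such gene in either strain (13.2% and 13.4%). The median difference of the 10 genes was 0.39 log2 for the average (0.06 over all probe sets), 0.40 in WT (0.08 over all) and 0.36 in CD169-DTR (0.04 over all). In WT it was 0.24 without non-irradiated replicate 1, the array that was low for Plk2 and Mdm4.

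Markers of granulocytes had higher means with irradiation in WT. All 11 of 11 measured genes of neutrophils and their progenitors had higher means in WT 2 Gy LT-HSC, against 64.2% of all probe sets. The mean over the list was 9.8 and 10.4 in WT 2 Gy LT-HSC, against 7.63 and 8.58 in WT non-irradiated LT-HSC. In CD169-DTR 4 of 11 were higher (56.6% of all probe sets). There the list stood at 9.63 and 8.62 in 2 Gy LT-HSC, against 9.06 and 9.65 in non-irradiated LT-HSC. Within that list Ctsg and Ms4a3, genes of granulocyte progenitors, were higher on all 4 irradiated arrays than on the 4 others, as were 3.76% of all probe sets. In CD169-DTR Ctsg had 9.65 and 10.07 in 2 Gy LT-HSC, against 8.60 and 8.95 in non-irradiated LT-HSC, and Ms4a3 had 9.94 and 9.93 in 2 Gy LT-HSC, against 9.26 and 8.95 in non-irradiated LT-HSC. Other genes of the list did not follow in CD169-DTR, where 7 of 11 were lower. Prtn3 had 8.86 and 9.02 in 2 Gy LT-HSC, against 9.19 and 9.12 in non-irradiated LT-HSC. Elane (12.76 and 12.86 against 12.61 and 12.87) and Mpo (11.98 and 12.44 against 11.87 and 12.11) overlapped there. The mast cell and basophil list was higher for 7 of 7 genes in CD169-DTR (median 0.61 log2, 56.6% of all probe sets higher). In WT it was higher for 2 of 7 (median -0.41, 64.2% of all probe sets higher). In CD169-DTR 4 of its genes had an unadjusted p under 0.05 in limma (3.24% of all probe sets on the higher side) and 0 passed. Its mean was 6.6 and 7.46 in WT 2 Gy LT-HSC, against 7.59 and 7.33 in WT non-irradiated LT-HSC, and 7.93 and 7.38 in CD169-DTR 2 Gy LT-HSC, against 6.94 and 5.90 in CD169-DTR non-irradiated LT-HSC. Of the monocyte and macrophage list (8 measured genes), 7 were higher in WT (64.2% of all probe sets) and 5 in CD169-DTR (56.6%). The mean of this list lay between 5.88 and 6.19 on the irradiated arrays and between 5.61 and 5.99 on the non-irradiated ones. Its Ly6c2, a gene of monocytes, was higher on all 4 irradiated arrays, with a gap of 0.59 (1.47 ± 0.28 over both strains, adjusted p = 0.302). Cd68 of the same list went the other way. Its means were 7.955 in WT 2 Gy against 8.515 in WT non-irradiated LT-HSC, and 7.995 against 8.21 in CD169-DTR. For the average 6 of the 8 genes were higher (63.7% of all probe sets) and 2 lower. The lymphoid list (7 measured genes) lay between 5.46 and 5.68 on all 8 arrays. The megakaryocyte list (7 measured genes) stood at 10.8 and 9.78 in WT 2 Gy LT-HSC, against 10.04 and 10.06 in WT non-irradiated LT-HSC, and at 10.5 and 9.83 in CD169-DTR 2 Gy LT-HSC, against 9.62 and 9.83 in CD169-DTR non-irradiated LT-HSC. The erythroid list (5 measured genes) stood at 8.72 and 9.67 in WT 2 Gy LT-HSC, against 10.06 and 9.78 in WT non-irradiated LT-HSC, and at 9.30 and 8.24 in CD169-DTR 2 Gy LT-HSC, against 9.32 and 10.68 in CD169-DTR non-irradiated LT-HSC. The part of such cells in the values of any of the 10 genes was not tested.

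Other genes around p53 were followed on 3 further lists. Of 33 measured targets of p53 outside the 10, 25 had higher means over both strains and 8 lower, with a median of 0.27 log2. Of all probe sets, 63.7% had higher means. An unadjusted p under 0.05 was found for 11 higher (5.24% of all probe sets) and 2 lower (3.98%). Cdkn1a (p21), the inhibitor of cyclin-dependent kinases, was the only one that passed, at 13.06 and 13.41 in WT 2 Gy LT-HSC, against 7.86 and 8.39 in WT non-irradiated LT-HSC, and 13.24 and 13.23 in CD169-DTR 2 Gy LT-HSC, against 9.79 and 9.34 in CD169-DTR non-irradiated LT-HSC (4.39 ± 0.17, adjusted p = 0.00205). It also passed within WT (5.11 ± 0.24, adjusted p = 0.0073), where no other gene of the list did. Within CD169-DTR Cdkn1a ranked 1 by p in limma without passing (3.67 ± 0.24, adjusted p = 0.0622). The difference between the strains in its response was -1.44 ± 0.34 (adjusted p = 0.839). Its non-irradiated level was higher in CD169-DTR by 1.44 ± 0.24 (adjusted p = 0.936). Within CD169-DTR 0 of the 33 passed. There 5 higher (3.24% of all probe sets) and 2 lower (3.53%) had an unadjusted p under 0.05. E2f7, a repressor of cell cycle genes, had 0.84 ± 0.10 (adjusted p = 0.209), with 1.34 ± 0.15 within CD169-DTR (adjusted p = 0.244) and 0.34 ± 0.15 within WT (adjusted p = 0.641). The difference between the strains was 0.99 ± 0.21 and did not pass (adjusted p = 0.836). Ak1, an adenylate kinase, had 0.51 ± 0.11 (adjusted p = 0.329), and Tnfrsf18 (GITR), a receptor of the tumour necrosis factor family, had -0.80 ± 0.14 (adjusted p = 0.287). Of 23 measured regulators that act on p53, 12 were higher (63.7% of all probe sets) and 11 lower with a median of 0.02. In limma 0 passed, with 0 at an unadjusted p under 0.05. Hipk2, a kinase that phosphorylates p53, had -0.28 ± 0.14 (adjusted p = 0.584), and the checkpoint kinase Chek2 had -0.73 ± 0.30 within WT (adjusted p = 0.638), 0.20 ± 0.30 within CD169-DTR (adjusted p = 0.957) and -0.27 ± 0.21 for the average (adjusted p = 0.682). Trp53 itself was not analysed here.

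The third list held 23 relatives of the 10 genes by protein family. Of these, 13 were higher (63.7% of all probe sets) and 10 lower with a median of 0.04 for the average, and 0 passed. At an unadjusted p under 0.05 in limma, 4 were higher (5.24%) and 2 lower (3.98%). Phlda2, which shares the pleckstrin homology domain of Phlda3, had the opposite sign to it: 10.12 and 10.46 in WT 2 Gy LT-HSC, against 11.40 and 11.34 in WT non-irradiated LT-HSC, and 11.60 and 11.18 in CD169-DTR 2 Gy LT-HSC, against 12.17 and 12.01 in CD169-DTR non-irradiated LT-HSC. Irradiated arrays were lower within each strain, and the average difference was -0.89 ± 0.13 (adjusted p = 0.209). Plk4, the kinase of centriole duplication, had 0.45 ± 0.16 (adjusted p = 0.502) and Zmat2, a zinc finger protein of the spliceosome, 0.24 ± 0.09 (adjusted p = 0.51). In the promoter windows the p53 half-site was found for 8 of 28 genes of the other targets, 4 of 21 regulators and 0 of 20 relatives.

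**Figure D3:**
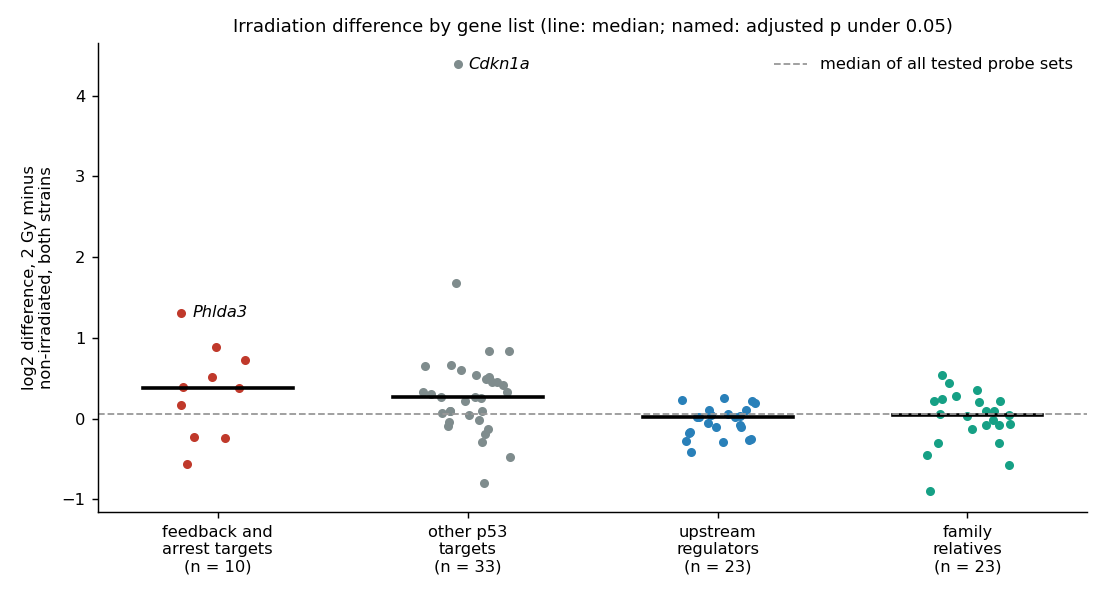
Log2 difference between 2 Gy and non-irradiated LT-HSC over both strains (y axis) for the genes of 4 lists (x axis, with the number measured); each point is a gene, black lines are list medians and the dashed line is the median of all tested probe sets. The medians are 0.39, 0.27, 0.02 and 0.04 from left to right, and the only genes with an adjusted p under 0.05 are Phlda3 and Cdkn1a.

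Whether these genes differed with irradiation otherwise in CD169-DTR than in WT mice, all given toxin, was asked by the difference between the responses of the strains. For Phlda3 the response in CD169-DTR was -0.04 ± 0.16 log2 from that in WT, with an interval of -0.43 to 0.35. For Ccng1 the difference was -0.07 ± 0.19 (-0.52 to 0.39), and for Plk3 0.03 ± 0.28 (-0.64 to 0.69). Plk2 had the largest, 0.36 ± 0.50 (-0.85 to 1.56). In limma 0 of 10 passed (0% of all probe sets) and 0 had an unadjusted p under 0.05 (5.17% of all probe sets), with adjusted p between 0.979 and 0.997 for the 10. For Mdm4 the interval of -1.19 to 1.03 was the widest but for Plk2, so that a 2-fold difference between the strains in either direction could not be resolved there.

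Comparing CD169-DTR with WT at the same dose asks how these genes differed between the strains after toxin. Macrophage depletion, the CD169DTR/+ allele and other effects of toxin in mice with the receptor cannot be told apart here. No CD169-DTR group without toxin was among the arrays. These contrasts use the same arrays as the irradiation contrasts. Among 2 Gy LT-HSC 0 of 10 genes passed in limma (0% of all probe sets) and 0 had an unadjusted p under 0.05 (7.57%). Among non-irradiated LT-HSC 0 of 10 passed (0%) and 0 had an unadjusted p under 0.05 (4.38%).

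Phlda3 was lower in CD169-DTR at both doses without passing, with -0.23 ± 0.12 at 2 Gy (adjusted p = 0.699) and -0.19 ± 0.12 in non-irradiated LT-HSC (adjusted p = 0.999). Plk2 was lower too, with -0.45 ± 0.36 at 2 Gy and -0.80 ± 0.36 in non-irradiated LT-HSC (adjusted p of 0.822 and 0.999). Plk3 was higher, with 0.40 ± 0.20 at 2 Gy and 0.37 ± 0.20 in non-irradiated LT-HSC (adjusted p of 0.695 and 0.999). For these 3 genes the strains did not overlap at either dose. The share of all probe sets without overlap at both doses was not computed, and those at each dose are given next. At 2 Gy 3 of the 10 genes were lower without overlap (18.9% of all probe sets), Mdm2 being the third, and 2 higher (16% of all probe sets), Plk3 and Psrc1. In non-irradiated LT-HSC 2 were lower (11.9%) and 1 higher (19.1%). Ccng1 had the same mean of 13.2 in both non-irradiated groups, a difference of 0.0 with an interval of -0.32 to 0.32. The medians of the 10 genes were -0.11 at 2 Gy and -0.05 in non-irradiated LT-HSC, against -0.02 and 0.03 over all probe sets.

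**Figure D4:**
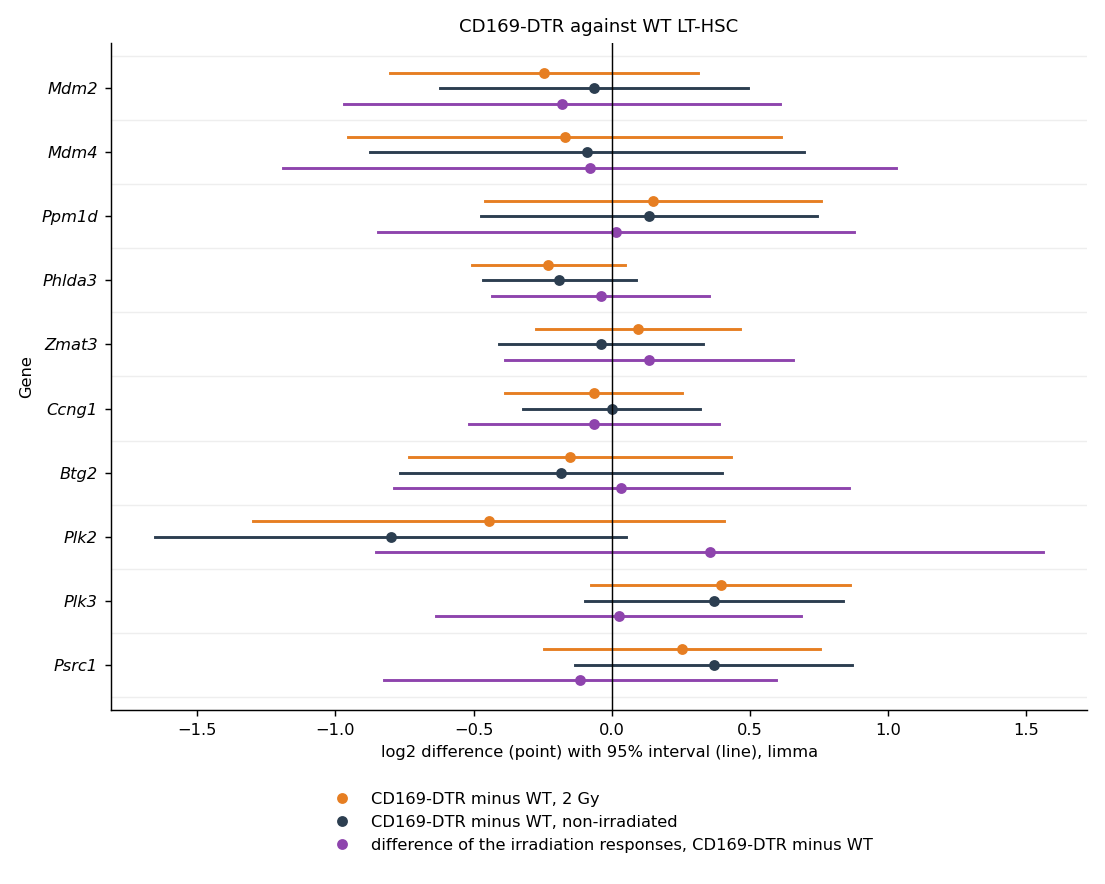
Log2 difference between CD169-DTR and WT LT-HSC (x axis; points, with lines for the 95% interval from limma) for the 10 genes (y axis), at 2 Gy, non-irradiated, and for the difference of the irradiation responses. Every interval includes 0, and the widest belong to Plk2 and Mdm4.

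Among the 10 genes, Phlda3, Plk2, Plk3, Btg2 and Psrc1 had a range of at least 1 log2 over the 8 arrays. For these the tested genes with the most similar profile were sought, by the root mean square difference between profiles centred on their own mean over the 8 arrays. The nearest to Phlda3 were Dglucy (0.217 log2), the predicted gene Gm20257 (0.227) and the extracellular sulfatase gene Sulf2 (0.286). Dglucy had 6.65 and 6.71 in WT 2 Gy LT-HSC, against 5.53 and 4.97 in WT non-irradiated LT-HSC, and 5.85 and 6.56 in CD169-DTR 2 Gy LT-HSC, against 5.00 and 4.86 in CD169-DTR non-irradiated LT-HSC. The nearest to Plk2 were Mospd2 at 0.288, Gm2005 at 0.33 and Kcnip3 at 0.332. Those nearest to Plk3 were Zfp398 at 0.118, Maea at 0.13 and Clip3 at 0.133. For Btg2 they were Gm16894 and Ceacam2 at 0.101 and Gm11241 at 0.102, and for Psrc1 Vmn1r35 at 0.0849, Gm22973 at 0.0978 and Hexim1 at 0.0981. Being the nearest of all tested genes, these have small differences by selection, and shared regulation was not tested. Vmn1r35 (3.18 to 4.16) and Gm11241 (3.88 to 4.70) lay below the array medians.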

How the data were processed

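RNA of sorted LT-HSC was hybridised to 8 arrays, 2 per group. The deposited log2 values, 1 for each probe set on each array, came from RMA per the submitters' processing notes. RMA is a summary of probe intensities that adjusts for background and scales arrays to a common distribution, which can shrink differences of dim probe sets. The log base is taken from the convention of RMA, since the table does not state it. The version, array annotation and genome build are not given in the sources used here. No further step was applied.

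Of 40161 probe sets, 30294 carried 1 gene symbol and were tested, 2145 carried several and 7722 none. Symbols were updated through Entrez IDs to RefSeq names for 827 probe sets.

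One model with 4 group means was fitted with limma 3.58.1 in R 4.3.3, with 4 residual and 2.59 prior degrees of freedom. Tests were two-sided, and p was adjusted by Benjamini-Hochberg over all 30294 probe sets within each of 6 comparisons. An adjusted p under 0.05 counted as passed. SE and 95% intervals come from the same fit. The number of arrays limits precision. Each p-value sets a difference against the spread between replicate arrays, shared by all groups and moderated over all probe sets. It does not speak to the spread between mice.

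The 10 genes and the lists were chosen with earlier results of these data known. Named beside the 10 genes were Cdkn1a, listed genes that passed, some of the up to 4 per list and comparison with the smallest p, and the 3 genes nearest in profile to each of the 10 with a range of at least 1 log2. Marker genes were taken from the lists of cell types. Trp53, Bax and Ly6a had no tested probe set with their symbol and were not analysed here.

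The alternatives were an intensity trend, the replicate block, a filter on dim probe sets, all probe sets, array weights, median centring, cyclic loess, only the groups compared, a fold rule, and each array left out.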

Additional observations from a re-analysis of the deposited data

How the results depend on the processing

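Of 1000 recomputed differences of the 10 genes, 938 kept their direction and their side of the threshold, 10 lost the call (all of Phlda3 for the average of both strains) and 52 changed direction. The 938 include Ccng1 for CD169-DTR against WT in non-irradiated LT-HSC. Its difference of 0.0 had no direction to keep, and it ran from -0.08 to 0.08 over 17 alternatives. For Phlda3, Ccng1, Zmat3, Plk2, Plk3, Btg2 and Psrc1 none of 50 recomputed irradiation differences each changed direction. Many of these values, and many of the 938, could not move. Settings that alter only the spread or the probe sets tested leave a difference as it was. So does leaving out an array of the other strain for a difference within a strain. The number of genes passed for the average, 1, was 0 with the intensity trend, with the replicate block and without both far 2 Gy arrays, and 0 to 1 over the 8 arrays left out. By an unadjusted p under 0.05 and a fold of at least 1.5 it was 3, against 2 in WT and 3 in CD169-DTR. In WT the median of the genes lay between 0.242 and 0.475 with single arrays removed. The cause was not tested.

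Over the 8 arrays left out, small differences changed direction. In WT irradiation this was Mdm4 -0.64 to 0.26, and in CD169-DTR Mdm2 -0.23 to 0.39 and Ppm1d -0.545 to 0.085. For the difference between the responses the ranges were Mdm2 -0.49 to 0.13, Mdm4 -0.53 to 0.37, Ccng1 -0.17 to 0.04, Ppm1d -0.3 to 0.33, Phlda3 -0.105 to 0.025, Zmat3 -0.03 to 0.3, Plk2 -0.095 to 0.805, Plk3 -0.165 to 0.215, Btg2 -0.255 to 0.325 and Psrc1 -0.32 to 0.09. For CD169-DTR against WT they were Mdm4 -0.4 to 0.06, Ccng1 -0.17 to 0.04, Ppm1d -0.165 to 0.465, Zmat3 -0.07 to 0.26 and Btg2 -0.355 to 0.055 at 2 Gy, and Mdm2 -0.375 to 0.245, Mdm4 -0.54 to 0.36, Zmat3 -0.145 to 0.065 and Btg2 -0.475 to 0.105 in non-irradiated LT-HSC. Median centring moved the median of all probe sets in WT irradiation to -0.04, against 0.075 as deposited. It turned the difference between the responses to 0.015 for Mdm4, 0.03 for Ccng1 and 0.055 for Phlda3, and CD169-DTR against WT at 2 Gy to 0.005 for Ccng1. Cyclic loess turned the difference between the responses of Ppm1d to -0.031. Without both far 2 Gy arrays, a setting chosen after seeing the data, irradiation in WT was 0.04 for Mdm4, the difference between the responses was -0.525 for Ppm1d and 0.04 for Psrc1, and CD169-DTR against WT at 2 Gy was -0.39 for Ppm1d.

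Replicates with the same number did not deviate together throughout (r of rep 1 minus rep 2 between groups from -0.0877 to 0.159), and the labels do not tie numbers to an experiment. With the replicate number as a block, the Phlda3 rise over both strains had an adjusted p of 0.0768 and Ccng1 0.286, and no other call of the 10 genes changed. Each gene had 1 probe set, so averaging over probe sets was not run, and the fit on only the compared groups gives no value for the average or the difference between responses. Signal over background was not available, which limits Btg2, Plk3 and Zmat3.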
